A study of Mus musculus with 5 samples.

Results

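Genes of MHC class I antigen presentation were read in RNA labelled as CRC tumour, from mice kept at 30 °C or 4 °C. The 10 genes were taken by symbol from a gene table of 54113 named entries, and all 10 were present and passed the filter on low counts. They encode the class I heavy chains (H2-K1, H2-D1) and their light chain (B2m), the peptide transporter and its partner (Tap1, Tap2, Tapbp), the inducible proteasome subunits (Psmb8, Psmb9, Psmb10) and the transactivator Nlrc5. The study describes its CRC (colorectal cancer) tumours as implants, for which it used MC-38 cells, a mouse colon carcinoma line, in C57BL/6 mice. Every library is labelled as tumour tissue. Housing lasted 2 weeks at 30 °C, the thermoneutral control (3 tumours), or at 4 °C, the cold exposure (2 tumours). No genetic change, drug, age or sex is given for either group in the labels. A tumour implanted in this way also contains host immune, vascular and stromal cells, and the measurement takes them together. The study calls them biological samples, but the labels do not say that each came from a separate mouse and state the RNA input by group, so p-values measure only the spread between these libraries, which may be technical in part. Libraries of 1 group differed by more than sampling noise, with a chi-square per degree of freedom of 53.1 to 489. The values were 427 and 489 for the pairs with 30 °C replicate 2, 83.2 for the other pair at 30 °C and 53.1 at 4 °C.

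Class I molecules show peptides from inside a cell to CD8 T cells. The proteasome cuts proteins into peptides, the Tap1 and Tap2 transporter moves them into the endoplasmic reticulum, Tapbp (tapasin) holds empty class I molecules at the transporter, and a heavy chain, B2m and peptide leave together for the surface. Interferons raise most of these genes, and under interferon Psmb8, Psmb9 and Psmb10 take the places of Psmb5, Psmb6 and Psmb7 in new proteasomes, which are then called immunoproteasomes. Nlrc5 acts with the RFX, CREB and NF-Y factors at class I promoters. Lymphocytes carry much class I, whereas pancreatic acinar cells carry little.

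Libraries held 16191708 to 20320525 counts on named genes. 30 °C replicate 2 stood apart, since 31.2% of its counts came from a list of 37 pancreatic acinar genes, against 0.302% in 4 °C replicate 2 and at most 0.00903% in the other 3. In CPM, counts scaled to the library's total, every other gene of 30 °C replicate 2 is lowered by this share. Levels are therefore given after TMM scaling, whose factor was 0.738 for that library and 1.03 to 1.13 for the others. Epithelial markers summed to between 20 and 122 CPM. Cdx1 had 0 counts in every library, and Krt19 and Vil1, which carcinomas of the colon commonly express, had 3 or fewer counts in 3 and 4 of the 5 libraries. Others of the 10 epithelial markers were detected in every library, among them Epcam with 128 to 200 counts, Krt8 with 59 to 966 and Cdh1 with 42 to 403. B cell markers summed to between 9440 and 19600 CPM, and the splenic transcription factor Tlx1 stood at 10.5 to 30.2 CPM in libraries labelled as tumour. Erythroblast markers, globins among them, made up 1.57% to 4.22% of counts. The word tumour is used here as the labels give it, and which tissues the libraries hold was not tested.

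No class I gene differed between the temperatures by the adjusted test, although most had a higher fitted level at 4 °C. In the fit of edgeR's quasi-likelihood model to 16133 genes, 0 of the 10 had a Benjamini-Hochberg adjusted p under 0.05, as did 0% of all genes. DESeq2 called 118 genes and 0 of the 10. At an unadjusted p under 0.05, 1 of the 10 passed (Psmb8, higher at 4 °C), against 6.76% of all genes (1090). Of the 10 fitted log2 fold changes (4 °C minus 30 °C), 9 were above 0 and that of Nlrc5 was below 0. Their median was 0.31, and the median over all genes tested was 0.0064. The median of the 10 was 0.45 without 4 °C replicate 1 and 0.16 without 4 °C replicate 2. In 4 of the 10 genes (H2-K1, Tap2, Psmb8 and Psmb9) both tumours at 4 °C stood above all 3 at 30 °C, and no gene showed the opposite. Over all genes, 23.3% had groups that did not overlap, 12.2% with 4 °C higher and 11% with 4 °C lower. In CPM without TMM scaling, 3 of the 10 were free of overlap (Tap2, Psmb8 and Psmb10), against 16.4% of all genes on that scale. In bulk tissue, fewer cells of a type and less RNA per cell cannot be told apart.

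**Figure D1:**
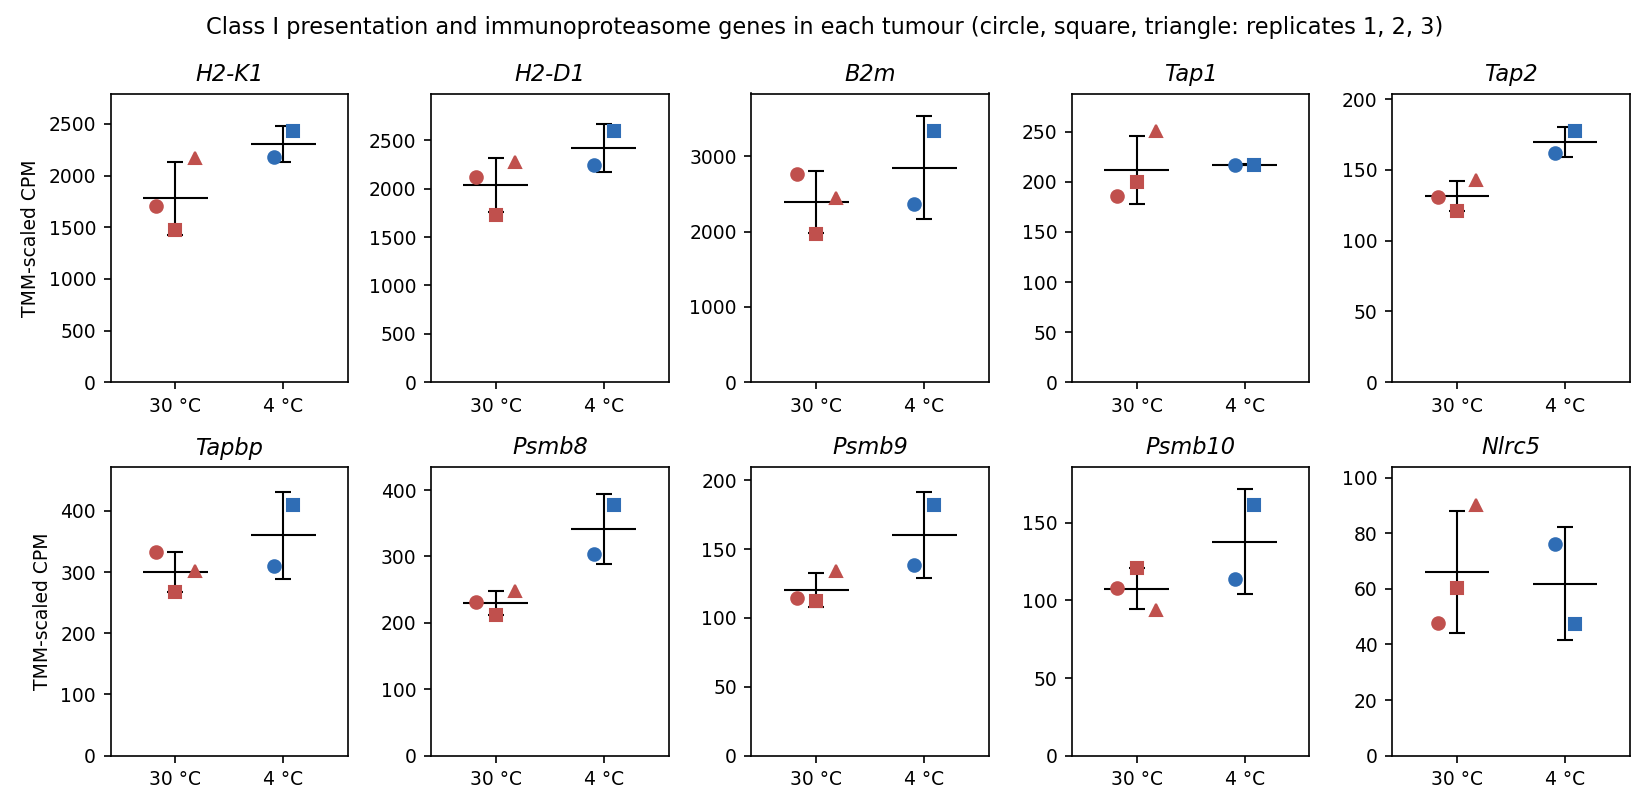
TMM-scaled CPM of the 10 class I presentation genes (vertical axes from 0) in the 3 tumours at 30 °C (red) and the 2 at 4 °C (blue). Points are tumours, horizontal lines are means and bars are the SD. For Psmb8 the values at 4 °C, 304 and 378, lie above all 3 at 30 °C, whereas those of Nlrc5 overlap.

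Of the heavy and light chain genes, H2-K1 was higher in both cold-exposed tumours, and H2-D1 and B2m overlapped between the groups. H2-K1, on chromosome 17 of GRCm38 from 33996017 to 34000347, encodes a classical heavy chain. It had 1706, 1475 and 2168 TMM-scaled CPM at 30 °C and 2185 and 2431 at 4 °C. The groups met closely, since 30 °C replicate 3 stood just under 4 °C replicate 1. On the log2 scale the fitted difference was 0.37 (standard error, SE, 0.21, edgeR adjusted p = 0.80). H2-D1, the other classical heavy chain of this strain, lies on chromosome 17 from 35262730 to 35267499. It had 2117, 1724 and 2274 TMM-scaled CPM at 30 °C and 2244 and 2596 at 4 °C, so that 30 °C replicate 3 lay between the cold-exposed tumours. The fitted log2 difference was 0.25 (SE 0.19, edgeR adjusted p = 0.84). B2m, on chromosome 2 from 122147686 to 122153083, had 2767, 1961 and 2450 TMM-scaled CPM at 30 °C and 2361 and 3333 at 4 °C. The highest B2m level was in 4 °C replicate 2 and the lowest in 30 °C replicate 2, with the other 3 between them. Its log2 difference was 0.25 (SE 0.23, edgeR adjusted p = 0.87), and without 4 °C replicate 2 it was −0.033. Reads that fit several class I genes could be lost or shared. Of the distinct windows of 50 bases in the annotated transcripts of H2-K1, 9.63% also occurred in transcripts of another gene, and for H2-D1 the share was 12.8%. With windows of 100 bases these shares were 0.957% and 3.59%, and for B2m 0 windows of either length were shared.

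The promoters of these 3 genes are shown because each carries CCAAT and TGACG at the same spacing. Capitals mark matches, on either strand, to CCAAT (the core bound by NF-Y), TGACG (a CREB site core) and GAAANNGAA (an interferon response element core). The windows run from 250 bases before to 50 after a RefSeq start on GRCm38.p6, read along the gene.

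H2-K1, chr17:34000284-34000583, minus strand: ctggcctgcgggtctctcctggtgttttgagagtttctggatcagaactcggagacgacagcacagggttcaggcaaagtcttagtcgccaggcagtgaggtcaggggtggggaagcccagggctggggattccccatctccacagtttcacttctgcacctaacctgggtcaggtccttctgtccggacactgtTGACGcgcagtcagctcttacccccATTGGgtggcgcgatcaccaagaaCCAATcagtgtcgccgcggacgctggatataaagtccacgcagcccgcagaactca

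H2-D1, chr17:35262844-35263143, plus strand: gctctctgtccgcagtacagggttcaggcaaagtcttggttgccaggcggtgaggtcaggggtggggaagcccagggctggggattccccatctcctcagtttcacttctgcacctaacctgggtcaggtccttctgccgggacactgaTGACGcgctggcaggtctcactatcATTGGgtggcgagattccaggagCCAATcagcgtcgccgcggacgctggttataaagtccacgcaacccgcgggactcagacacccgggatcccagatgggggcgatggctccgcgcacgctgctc

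B2m, chr2:122147437-122147736, plus strand: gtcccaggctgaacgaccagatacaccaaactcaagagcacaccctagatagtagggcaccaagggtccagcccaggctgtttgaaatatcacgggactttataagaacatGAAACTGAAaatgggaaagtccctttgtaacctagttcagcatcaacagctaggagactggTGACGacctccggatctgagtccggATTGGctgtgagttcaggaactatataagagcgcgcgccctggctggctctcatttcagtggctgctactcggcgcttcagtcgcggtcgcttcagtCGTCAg

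In each of the 3 windows, TGACG was followed by CCAAT on the opposite strand with 25 bases from the first letter of one match to the first letter of the next. This spacing was looked for after the matches had been seen. It occurred in 0.0944% of the 32851 promoter windows of all genes, on either strand, and among the 8 member genes with a window only in H2-K1, H2-D1 and B2m. The H2-K1 and H2-D1 windows aligned over 242 columns with 89.7% identity, and their longest identical run had 47 bases. B2m was the only one of the 8 with an exact match to GAAANNGAA, which 8.56% of all promoters held. Other spellings of an interferon response element were not searched for, so the genes without a match may still carry one. Matches to CCAAT were found in 6 of the 8 genes (37.4% of all promoters) and to TGACG in 5 of 8 (20.8% of all promoters). A match describes letters and does not show binding. Tap2 and Nlrc5 were not among the 8.

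In the transporter group, Tap2 stood higher in both cold-exposed tumours, and Tap1 and Tapbp overlapped between the groups. Tap1 and Tap2, the chains that form the peptide transporter, lie on chromosome 17 from 34187553 to 34197225 and from 34203527 to 34216321. Tap1 had 186, 200 and 251 TMM-scaled CPM at 30 °C and 217 in each tumour at 4 °C. Both cold-exposed values lay inside the range at 30 °C. On the log2 scale the fitted difference was 0.031 (SE 0.19, edgeR adjusted p = 0.98, 95% interval without adjustment −0.42 to 0.48), and it was below 0 without 30 °C replicate 1 (−0.055) or 30 °C replicate 2 (−0.019). Tap2 had 131, 121 and 143 TMM-scaled CPM at 30 °C and 162 and 177 at 4 °C. The groups did not overlap, and the fitted log2 difference was 0.37 (SE 0.16, edgeR adjusted p = 0.75). Tapbp, on chromosome 17 from 33915899 to 33929292, encodes tapasin. It had 333, 268 and 301 TMM-scaled CPM at 30 °C and 309 and 410 at 4 °C, with 4 °C replicate 1 below 30 °C replicate 1. The fitted log2 difference was 0.26 (SE 0.20, edgeR adjusted p = 0.85). Of the transcript windows of 50 bases, 23.2% of those of Tapbp and 11.6% of those of Tap2 also occurred in another annotated gene, which makes their counts less certain than those of Tap1 (3.33%).

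Psmb8 and Psmb9 had the largest fitted differences among the 10, and Psmb10 overlapped between the groups. Psmb8 encodes the inducible subunit that takes the place of Psmb5, and lies on chromosome 17 from 34197721 to 34201454. It had 232, 211 and 247 TMM-scaled CPM at 30 °C (230 ± 18.1, SD, n = 3) and 304 and 378 at 4 °C (341 ± 52.7, SD, n = 2). Both cold-exposed tumours stood above all tumours at 30 °C. Its log2 difference was 0.57 (SE 0.17, edgeR adjusted p = 0.69), or 1.48-fold, with a 95% interval of 0.16 to 0.98 that is not adjusted for the number of genes. Leaving out 1 tumour at a time gave 0.39 to 0.72, and its unadjusted p, 0.015 in edgeR with all tumours, was no longer under 0.05 without 30 °C replicate 2, without 4 °C replicate 2 or without both, nor with total counts in place of TMM scaling or with a replicate block. Of its transcript windows of 50 bases, 11.9% were shared with another annotated gene, Gm20496 among them. Psmb9, on chromosome 17 from 34181987 to 34187764, replaces Psmb6. Its levels were 114, 112 and 134 TMM-scaled CPM at 30 °C and 138 and 182 at 4 °C. The cold-exposed tumours were the highest, by a small margin in 4 °C replicate 1, and the fitted log2 difference was 0.41 (SE 0.19, edgeR adjusted p = 0.76). Psmb10, which replaces Psmb7, lies on chromosome 8 from 105935735 to 105938444. It had 108, 121 and 94.1 TMM-scaled CPM at 30 °C and 114 and 162 at 4 °C. 30 °C replicate 2 stood between the cold-exposed tumours, and the fitted log2 difference was 0.36 (SE 0.22, edgeR adjusted p = 0.81). The difference was 0.066 without 4 °C replicate 2, the tumour with the highest level of each immunoproteasome gene.

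**Figure D2:**
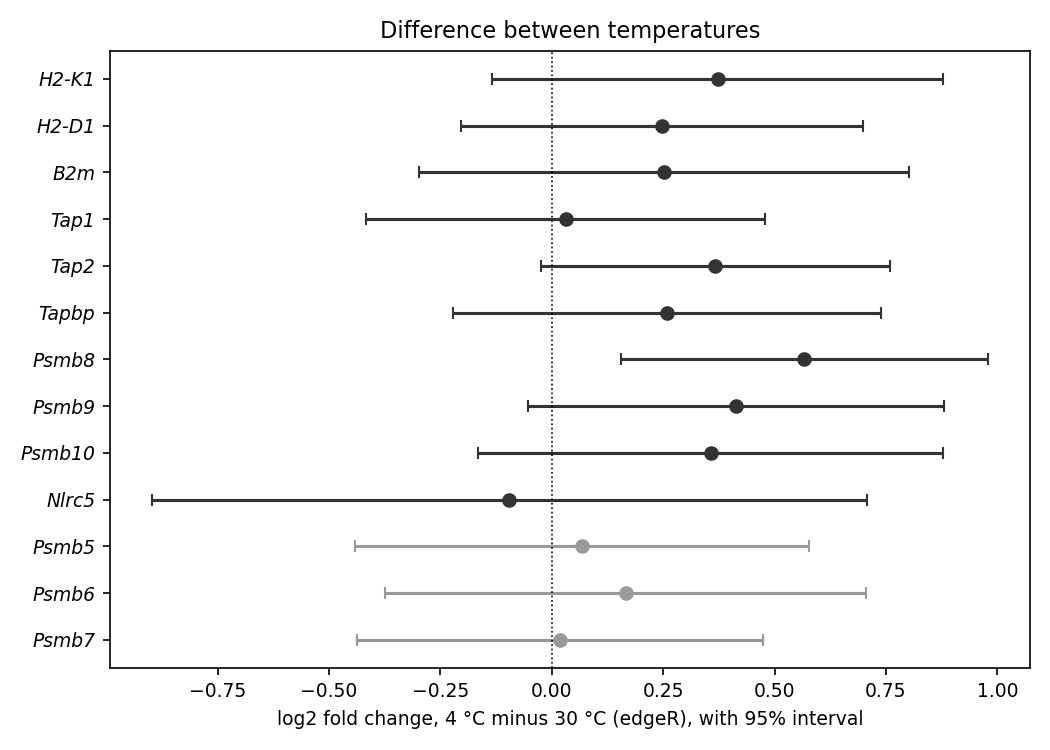
Log2 fold change (4 °C minus 30 °C, horizontal axis) of the 10 class I presentation genes (black) and of the 3 constitutive proteasome subunits (grey), with 95% intervals from the edgeR fit that are not adjusted for the number of genes. The interval of Psmb8, 0.16 to 0.98, is the only one drawn that does not include 0.

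Tap1 and Psmb9 lie on opposite strands, and their annotated genes overlap at their starts, which are 211 bases apart. Their RefSeq promoter windows share 275 bases, printed here in the direction of Tap1 with the same motifs in capitals. They are shown because the 2 genes are read in opposite directions from this region.

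Tap1 and Psmb9, chr17:34187306-34187580, plus strand: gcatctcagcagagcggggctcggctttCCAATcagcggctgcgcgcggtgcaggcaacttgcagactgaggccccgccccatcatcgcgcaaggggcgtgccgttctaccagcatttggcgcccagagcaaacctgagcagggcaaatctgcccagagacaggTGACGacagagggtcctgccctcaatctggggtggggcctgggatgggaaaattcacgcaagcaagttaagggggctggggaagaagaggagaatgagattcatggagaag

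Nlrc5, the transactivator, had the widest spread of the 10 relative to its level, with an SD of 21.9 around a mean of 66.1 TMM-scaled CPM at 30 °C. It lies on chromosome 8 from 94434356 to 94527272 and had 47.7, 60.2 and 90.3 TMM-scaled CPM at 30 °C and 76.2 and 47.5 at 4 °C. The highest Nlrc5 level was in 30 °C replicate 3 and the lowest in 4 °C replicate 2, the tumour where 8 of the other members stood highest. On the log2 scale the fitted difference was −0.095 (SE 0.33, edgeR adjusted p = 0.97), with an unadjusted 95% interval of −0.90 to 0.71, and its sign turned without 30 °C replicate 3 (0.20) and without 4 °C replicate 2 (0.19). The centred log2 CPM of Nlrc5 differed from the mean of the other members by 0.45 as a root mean square over the 5 libraries, against 0.057 to 0.25 for the other 9. Of 25 other regulators of class I genes, 0 were called, and 1 had an unadjusted p under 0.05, against 6.76% of all genes. This was Ezh2, a histone methyltransferase that silences genes, with 88.0, 105 and 85.1 TMM-scaled CPM at 30 °C and 67.0 and 65.8 at 4 °C. The fitted log2 difference was −0.48 (SE 0.17, edgeR adjusted p = 0.71). Rfxank, a subunit of RFX, followed by p-value with a log2 fold change of 0.37 (SE 0.22, edgeR adjusted p = 0.80). Irf1, an interferon-responsive factor, had 104, 86.3 and 125 TMM-scaled CPM at 30 °C and 124 and 132 at 4 °C, with overlap between the groups. The median log2 fold change of the 25 regulators was 0.063.

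Ratios of counts within a library (0.5 added to each count on the log2 scale), which do not depend on how libraries are scaled, set each inducible proteasome subunit against the constitutive subunit that it replaces. Psmb8 counts divided by Psmb5 counts gave 1.78, 1.97 and 2.48 at 30 °C and 3.02 and 2.80 at 4 °C. Both cold-exposed tumours stood above all 3 at 30 °C, and the mean log2 ratio was 0.50 higher. Psmb10 divided by Psmb7 gave 0.886, 1.01 and 0.905 at 30 °C and 1.12 and 1.23 at 4 °C, again without overlap, with a log2 difference of 0.33. Psmb9 divided by Psmb6 gave 0.849, 1.01 and 1.36 at 30 °C and 1.28 and 1.21 at 4 °C. Here 30 °C replicate 3 was the highest of all, and the log2 difference was 0.25. The constitutive genes themselves overlapped between the groups, with log2 fold changes of 0.068 for Psmb5, 0.17 for Psmb6 and 0.018 for Psmb7 (adjusted p = 0.96, 0.91 and 0.99 from edgeR).

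Members were also set against each other in the same way. Tap1 counts divided by Psmb9 counts, the genes of the shared promoter region, gave 1.63, 1.78 and 1.87 at 30 °C and 1.57 and 1.19 at 4 °C. Both cold-exposed tumours stood below all 3 at 30 °C, and the log2 difference was −0.36. H2-D1 divided by H2-K1 gave 1.24, 1.17 and 1.05 at 30 °C and 1.03 and 1.07 at 4 °C, with overlap and a log2 difference of −0.14. For each ratio without overlap, the exact permutation test (two-sided) gave p = 0.2, and with 3 against 2 no smaller p exists, which leaves 0.05 out of reach. For Psmb9 to Psmb6 and H2-D1 to H2-K1 this exact test gave p = 0.6 and 0.4. Adjusted over the 5 ratios, the exact values were 0.333, 0.6 and 0.5 in the same order. The sign of each of the 5 differences was kept with any 1 tumour left out.

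**Figure D3:**
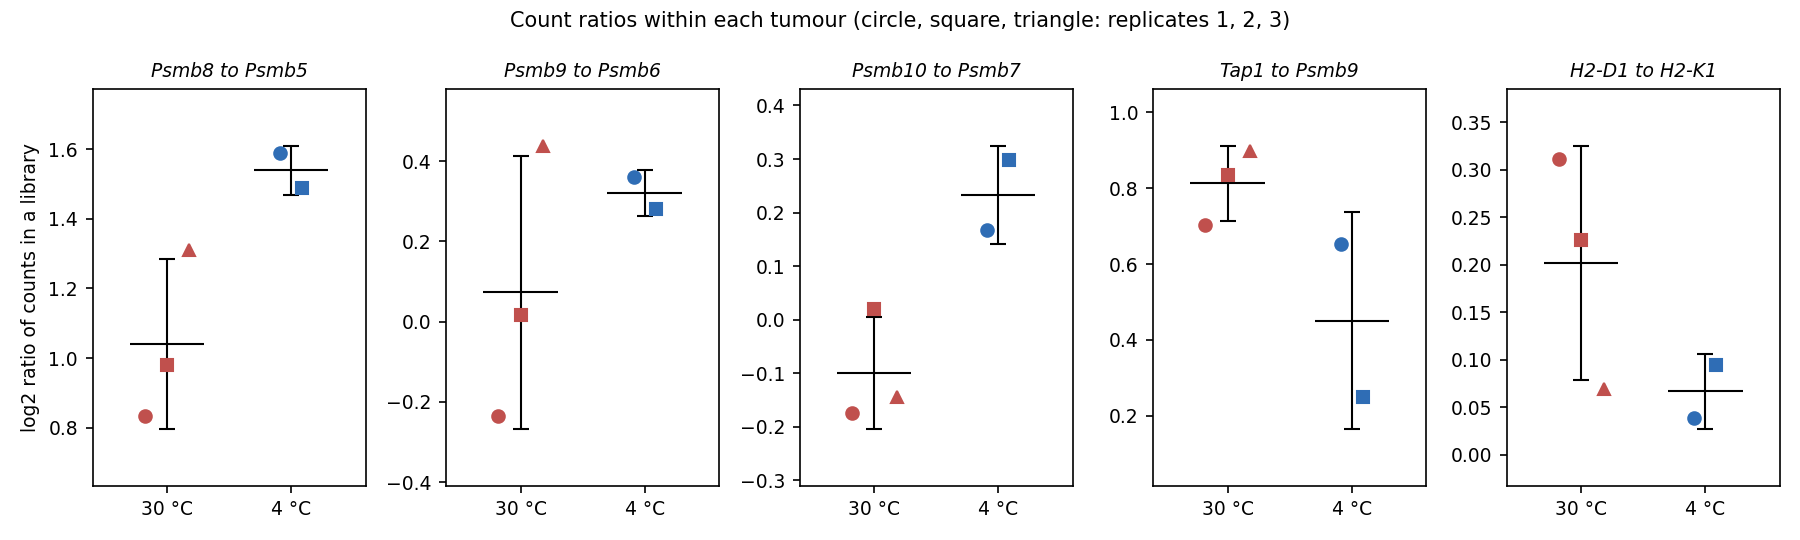
Log2 ratio of counts within each library (vertical axes, each with its own range) for 5 pairs of genes, in the 3 tumours at 30 °C (red) and the 2 at 4 °C (blue). Points are tumours, horizontal lines are means and bars are the SD. The groups do not overlap for Psmb8 to Psmb5, Psmb10 to Psmb7 and Tap1 to Psmb9, and they overlap for the others.

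Other genes of the pathway or related to it were counted from lists, and edgeR called 0 of them (DESeq2 called 1, Lilrb4a). Among 11 further subunits of the proteasome core, the median log2 fold change was 0.13, and 0 had an unadjusted p under 0.05. The smallest p-values belonged to Psmb1 (log2 fold change 0.24, adjusted p = 0.84 from edgeR) and Psma7 (0.18, adjusted p = 0.88). Of 9 activators and assembly factors, 2 had groups without overlap, both higher at 4 °C. Over all genes, 23.3% had groups without overlap, 12.2% with 4 °C higher. Psme1, a subunit of the interferon-inducible activator PA28, had 207, 177 and 202 TMM-scaled CPM at 30 °C and 224 and 292 at 4 °C (log2 fold change 0.40, adjusted p = 0.76 from edgeR). Psmg4, an assembly chaperone, had 18.2, 14.9 and 17.6 TMM-scaled CPM at 30 °C and 18.8 and 30.1 at 4 °C (log2 fold change 0.53, adjusted p = 0.76 from edgeR). Among 16 genes listed for peptide loading (chaperones, related enzymes, peptidases and Sec61 channel subunits), the median was −0.062. Of these 16, 2 had groups without overlap, 1 higher and 1 lower at 4 °C. Tapbpl, a peptide editor related to tapasin, had 44.5, 41.0 and 46.9 TMM-scaled CPM at 30 °C and 54.7 and 52.3 at 4 °C. Its log2 difference was 0.28 and that of Nrd1, a peptidase, was −0.28 (adjusted p = 0.80 and 0.83 from edgeR).

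The non-classical class I genes pointed in both directions. Of 20 listed, 17 passed the filter, with a median log2 fold change of 0.23 and 0 past an unadjusted p of 0.05. Groups did not overlap in 5 of them, 4 higher and 1 lower at 4 °C, against 23.3% of all genes. H2-K2, a relative of H2-K1, had 10.3, 11.1 and 15.2 TMM-scaled CPM at 30 °C and 16.6 and 18.7 at 4 °C (log2 fold change 0.53, adjusted p = 0.76 from edgeR). H2-T24 was the lower one, with 68.7, 93.6 and 72.1 at 30 °C and 62.0 and 28.5 at 4 °C (log2 fold change −0.79, adjusted p = 0.75 from edgeR). H2-K2 and H2-T24 belong to a family of related genes, and how many reads they share with others was not measured, so their levels are uncertain. Of 13 genes listed as class I receptors or related receptors, 2 had an unadjusted p under 0.05, in opposite directions (6.76% of all genes). Not all of the 13 are receptors of class I itself. Cd8b1, a chain of the CD8 co-receptor, had 24.5, 25.2 and 35.3 TMM-scaled CPM at 30 °C and 48.9 and 60.1 at 4 °C (log2 fold change 0.94, adjusted p = 0.69 from edgeR). Lilrb4a, an inhibitory receptor of myeloid cells, had 22.5, 16.4 and 11 at 30 °C and 6.91 and 4.91 at 4 °C (log2 fold change −1.49, adjusted p = 0.69 from edgeR).

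Summed T cell markers stood higher in both cold-exposed tumours, and sums of B cell and splenic markers did so only with a few genes included. Summed over 10 T cell markers, the level was 330, 396 and 558 TMM-scaled CPM at 30 °C and 732 and 769 at 4 °C. In 8 of the 10 T cell genes both cold-exposed tumours stood above all 3 at 30 °C, against 12.2% of all genes. Of these 10 T cell genes, 0 were called by edgeR (7 at an unadjusted p under 0.05, against 6.76% of all genes). Summed over 11 B cell markers, the level was 12756 to 14803 TMM-scaled CPM at 30 °C and 18139 to 18316 at 4 °C. Of the 11 genes, 3 were higher at 4 °C without overlap, against 12.2% of all genes. Ighm and Igkc, which encode antibody chains, made up most of this sum. Without them the other 9 genes gave 1290, 1930 and 3450 TMM-scaled CPM at 30 °C and 3880 and 3240 at 4 °C, and the groups overlapped. The 7 splenic markers summed to 127 to 209 TMM-scaled CPM at 30 °C and 213 to 233 at 4 °C. The separation of the sums rested on Ccl19, a chemokine with 67.1 CPM in 4 °C replicate 2 and at most 6.17 CPM in the other libraries. Without Ccl19 the sums were 123, 140 and 208 TMM-scaled CPM at 30 °C and 212 and 168 at 4 °C, with overlap. Stab2, the most abundant of the rest, had 174 CPM in 30 °C replicate 3 and 143 and 90.2 CPM at 4 °C. Taken singly, 5 of the 7 splenic genes were higher at 4 °C without overlap and 0 were lower. Over all genes these shares were 12.2% and 11%. Of the 7, edgeR called 0, and 3 had an unadjusted p under 0.05, against 6.76% of all genes. Ccl21a, 1 of the 5, had at most 19 counts. Both sums with genes left out were added after seeing the data. The summed class I genes themselves overlapped, at 7741, 6253 and 8152 TMM-scaled CPM at 30 °C and 8111 and 9933 at 4 °C. Macrophage, dendritic cell, neutrophil, erythroblast and stromal sums also overlapped between the groups. Of the 10 neutrophil genes 3 were lower at 4 °C without overlap, against 11% of all genes. The part of these cell types in the levels of the class I genes was not tested.

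**Figure D4:**
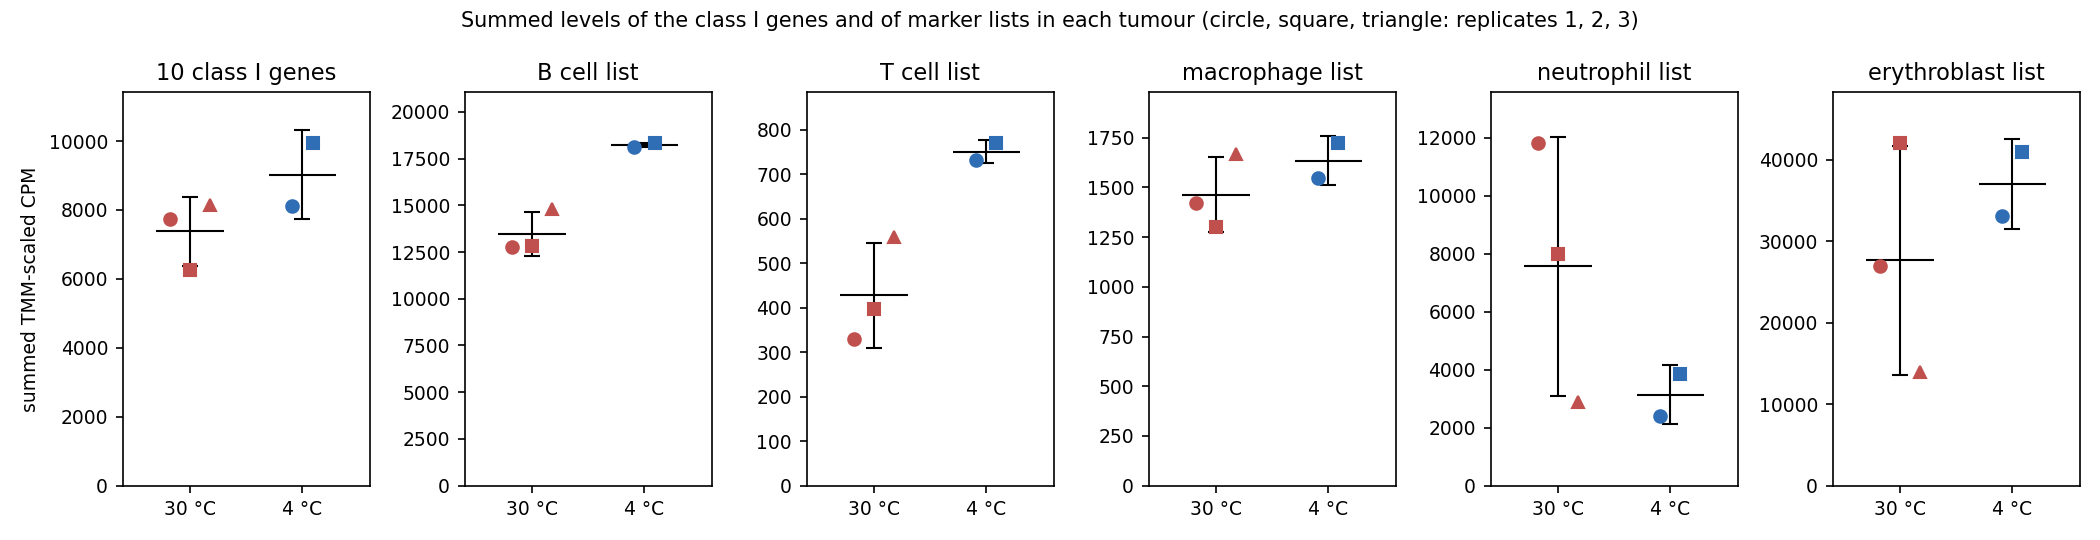
Summed TMM-scaled CPM (vertical axes from 0) of the 10 class I presentation genes and of 5 marker lists in the 3 tumours at 30 °C (red) and the 2 at 4 °C (blue). Points are tumours, horizontal lines are means and bars are the SD. The B cell and T cell sums do not overlap between the groups, whereas the class I sum does, with 8111 in a tumour at 4 °C below 8152 in a tumour at 30 °C.

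The order of the class I genes by level was read per kilobase of annotated exon, in CPM without TMM scaling. B2m was the highest, with a median of 3210 CPM per kilobase over the 5 libraries (range 1680 to 3990), followed by H2-D1 at 940 and H2-K1 at 803. This order of B2m, H2-D1 and H2-K1 held in each of the 5 libraries. Tapbp (93.6), Psmb8 (82.4) and Psmb10 (68.0) came next, and the order of Tapbp and Psmb8 and that of Psmb8 and Psmb10 each held in 4 of 5. Tap2 (42.6), Tap1 (40.8) and Psmb9 (40.8) were close, with Tap2 above Tap1 in 3 of the 5 libraries. Nlrc5 was last at 6.04 CPM per kilobase (range 5.22 to 12). Among the constitutive subunits, the medians were 125 for Psmb5, 62.1 for Psmb6 and 34.3 for Psmb7. The exon length counts every annotated transcript of a gene, and which were used in these tumours was not tested. Psmb5 had the higher median per kilobase (exon length 899 bases, against 3381 for Psmb8), although Psmb8 had more counts in each of the 5 libraries. The order by level thus depends on the exon lengths used. The 95% Wilson half-width from counting was at most 7.24% of a member's CPM.

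The class I genes as a group had a profile that many other genes came close to. Their mean centred log2 CPM was −0.14, −0.24 and 0.038 at 30 °C and 0.070 and 0.26 at 4 °C. Of 6070 other genes with a mean of at least 5 log2 CPM, 757 lay as close to this profile as the median member lay to the others. The closest were Commd7, Ddx41, Sdhaf2, Dlgap4 and Npepl1, with root mean square differences of 0.018 to 0.042 log2 CPM over the 5 libraries.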

How the data were processed

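RNA-seq counts of 5 tumours were used, 3 at 30 °C and 2 at 4 °C, grouped by the sample titles. The deposited values are raw counts per gene symbol, which the authors summarised from aligned reads with featureCounts on the Gencode vM19 annotation (GRCm38). The submitters' processing notes also name fastp, HISAT and RSEM. The strand setting and the treatment of reads that fit several genes are not given in the sources used here. Of 54446 entries, 333 without a name were left out (at most 0.0170% of counts). Where several entries shared a symbol (97 symbols), the most abundant was kept under it.

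Genes were filtered with filterByExpr and tested with the robust quasi-likelihood F-test of edgeR 4.0.16 in R 4.3.3 after TMM scaling, without covariates, over 16133 genes. Log2 CPM used a prior count of 2. Ratios were compared by exact permutation of the tumours. The text names the 10 members, Psmb5 to Psmb7, Irf1, the 2 genes with the smallest p in each pathway list and the 5 genes nearest in profile. The full rule included 1 gene more, which is not reported here. The members and lists were chosen with earlier results of these data known. Coordinates and exon lengths come from GENCODE M21, and promoters from RefSeq (GRCm38.p6), where 8 of the 10 members matched. Alternatives were DESeq2 1.42.0, other scalings and filters, a replicate block and each tumour left out. The edgeR fit was tested on simulated data with the same spread for every gene and with larger changes than the members had. That simulation does not show how the fit performs on libraries like these. Libraries of 16191708 counts or more put the floor of 3 counts at up to 0.185 CPM. Wilson intervals and floors cover counting error only, as PCR copies were not separated by molecular identifiers. Protein sequences were not used here.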

Additional observations from a re-analysis of the deposited data

How the results depend on the processing

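Each member had at least 733 counts in every library, where counting error alone was at most 7.24% of a level (95% Wilson half-width). No alternative called a class I gene. DESeq2 called 118 genes over all (26 higher and 92 lower at 4 °C), 1 of them from the pathway lists (Lilrb4a), total counts without scaling called 8 and the replicate block 44, against 0. At an unadjusted p under 0.05, edgeR gave 1090 genes and 1 member. These 1090 were 417 higher and 673 lower at 4 °C, or 558 and 570 with upper-quartile scaling. Total counts moved the median of all genes to 0.11, beside 0.39 for the members. Without 30 °C replicate 2, 520 genes and no member passed an unadjusted p of 0.05, and the 10 members had a median of 0.21.

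The median log2 fold change of the members lay between 0.156 and 0.448 with each tumour left out, and was 0.133 without both libraries that held most acinar transcripts (an alternative chosen after seeing the data). The number of members without overlap lay between 4 and 9 with a tumour left out. Smaller groups overlap less by construction. Members without overlap numbered 5, 5 and 6 without 30 °C replicates 1, 2 and 3, where 39%, 29% and 38.8% of all genes had none, and 9 and 4 without 4 °C replicates 1 and 2, where 58.5% and 49% had none. In the fits that leave out a cold-exposed tumour, the lone tumour was assumed to vary like the others. Of 150 recomputed fold changes of members, 10 changed sign. For Nlrc5 the value was 0.168 with the replicate block, 0.199 without 30 °C replicate 3, 0.194 without 4 °C replicate 2 and 0.129 without both acinar-rich libraries. For Tap1 it was −0.0554 without 30 °C replicate 1, −0.019 without 30 °C replicate 2 and −0.0227 without both acinar-rich libraries. For B2m it was −0.0327 without 4 °C replicate 2 and −0.16 without both acinar-rich libraries, where Tapbp stood at −0.0523. With 1 tumour left out at a time, B2m ranged from −0.0327 to 0.479 and Nlrc5 from −0.476 to 0.199. For these sign changes the cause was not tested.

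The replicate numbers are shared by 2 tumours of each group. Deviations from the group means correlated at −0.255 across genes for the tumours numbered 1 and at 0.259 for those numbered 2. With 2 tumours at 4 °C, the deviations of one mirror those of the other. These values therefore cannot decide whether the numbers mark pairs. With the replicate block the median of the members was 0.303.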
